A study of Mus musculus with 6 samples.

Results

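Syndecans and glypicans are the cell surface proteins that carry heparan sulfate, and 8 of their genes, Sdc1, Sdc2, Sdc3, Sdc4, Gpc1, Gpc3, Gpc4 and Gpc6, are described here out of 38561 genes counted in mouse small intestinal mucosa. The members were listed by symbol, with earlier results of these data known. All 8 passed the low-count filter that left 16425 genes to be tested. RNA came from C57BL/6J mice of both sexes aged 8 to 12 weeks, and was pooled from 3 mice per library, with 3 pools labelled wt and 3 pools labelled Rbm47-IKO, mice with an intestinal deletion of Rbm47, an RNA-binding protein. According to the study's methods, Rbm47-IKO mice carry floxed Rbm47 alleles and a Cre recombinase under the villin promoter. The methods place this Cre widely along the gut, colon included, and elsewhere only sparsely, in urogenital tissue. As background, villin is a protein of epithelial cells. The methods name floxed Rbm47 mice as controls, whereas the labels call the control pools wt. They also give wider ranges of age and of mice per pool than the labels, whose values are used here. Pools were made from separate mice, and the p-values measure the spread between pools.

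Each pool held 31560320 to 38951830 counts. Levels are normalized counts scaled to library size (CPM), scaled by the TMM library sizes of edgeR, and tests are edgeR quasi-likelihood tests with Benjamini-Hochberg adjustment over all tested genes and a threshold of 0.05. Of all genes tested, 2.7% passed in either direction, 1.45% higher and 1.25% lower in the pools labelled Rbm47-IKO. Epithelial identity of the tissue was seen in the summed CPM of 6 enterocyte genes, which ran from 25650 to 29896 in the pools labelled Rbm47-IKO and from 27674 to 31930 in wt pools. The targeted gene went against the labels, since Rbm47 (ENSMUSG00000070780) had a CPM of 602.7, 624.6 and 619.8 in pools 1 to 3 labelled Rbm47-IKO against 459.8, 449.9 and 472.1 in wt (log2 fold change 0.42 ± 0.10 SE, with edgeR's adjusted p at 0.0751). The exons deleted in the floxed allele are not given in the sources used here, and these values count all exons together. Every direction given here is by label. The groups are therefore called the pools labelled Rbm47-IKO and the wt pools throughout.

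Heparan sulfate is a long sugar chain, built in the Golgi on serines of a core protein and then modified by sulfation, that binds growth factors, Wnt proteins, chemokines and matrix proteins. Syndecans are transmembrane core proteins with a short cytoplasmic tail, and act as co-receptors for growth factors and as partners of integrins. Glypicans are held to the outer leaflet of the membrane by a lipid anchor and present Wnt, Hedgehog and bone morphogenetic protein ligands. In the intestine, syndecan-1 is the main heparan sulfate proteoglycan of the basolateral surface of epithelial cells, and it is also the plasma cell antigen CD138.

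RefSeq (GRCm38.p6) promoters were found for 5 of the 8 members, Sdc1, Sdc3, Sdc4, Gpc3 and Gpc4. The 250 bases before the RefSeq start of Sdc1 are shown because it was the only member that passed the test. Those of Sdc4 and Gpc4 are shown because they were the most abundant of the other members. That of Hpse is shown because this heparanase gene also passed, and was higher as Sdc1 was. RefSeq starts differ from the gene bounds of the deposited tables, so that the windows of Sdc4 and Gpc4 lie inside the bounds given for these genes below and that of Sdc1 runs past its lower bound. Each is written from 5′ to 3′ on the strand of the gene, with capitals at the letters GGGCGG (a GC box) and TATAA on either strand.
Sdc1, chr12:8771146-8771395, plus strand: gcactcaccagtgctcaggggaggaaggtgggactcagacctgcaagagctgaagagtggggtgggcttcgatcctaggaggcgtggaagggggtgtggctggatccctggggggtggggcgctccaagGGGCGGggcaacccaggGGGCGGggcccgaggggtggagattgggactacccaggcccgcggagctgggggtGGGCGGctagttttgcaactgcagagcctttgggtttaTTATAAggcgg
Sdc4, chr2:164443189-164443438, minus strand: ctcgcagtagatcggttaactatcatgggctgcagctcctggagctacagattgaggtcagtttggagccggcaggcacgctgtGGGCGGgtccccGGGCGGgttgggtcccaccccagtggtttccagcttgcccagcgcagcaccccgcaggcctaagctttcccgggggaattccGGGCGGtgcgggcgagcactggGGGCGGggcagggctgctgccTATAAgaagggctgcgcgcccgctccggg
Gpc4, chrX:52164924-52165173, minus strand: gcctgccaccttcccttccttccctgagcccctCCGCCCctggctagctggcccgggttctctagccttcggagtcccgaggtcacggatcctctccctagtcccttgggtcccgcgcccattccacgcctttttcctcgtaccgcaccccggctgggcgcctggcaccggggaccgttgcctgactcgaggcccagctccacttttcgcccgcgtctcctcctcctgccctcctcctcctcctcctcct
Hpse, chr5:100719717-100719966, minus strand: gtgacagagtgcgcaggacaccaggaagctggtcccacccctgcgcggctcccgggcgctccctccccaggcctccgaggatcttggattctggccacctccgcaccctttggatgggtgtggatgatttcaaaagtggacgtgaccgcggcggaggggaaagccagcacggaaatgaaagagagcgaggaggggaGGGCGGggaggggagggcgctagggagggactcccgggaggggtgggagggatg
The Sdc1 window held 3 matches to GGGCGG and a TATAA that reads on both strands, 11 bases before the start. The Sdc4 window held 4 matches to GGGCGG and a TATAA beginning 29 bases before the start, and Gpc4 and Hpse had 1 match to GGGCGG each and none to TATAA. Sdc3 and Gpc3, not printed, had 3 matches to GGGCGG each. Among 32851 promoter windows of the same length, 32.7% held GGGCGG and 22.8% held TATAA. The letters TGACNNNGC, the core of the antioxidant response element, were in none of the 5 members' windows and in 10.2% of all windows.

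Among the syndecans, Sdc1 mRNA was 2.31-fold higher in the pools labelled Rbm47-IKO, and Sdc2, Sdc3 and Sdc4 did not pass the test. Sdc1 (ENSMUSG00000020592, chromosome 12, 8771323 to 8793715, plus strand) was thus the only one of the 8 members called. It was also the only one whose pools did not overlap between genotypes, a separation found in 23.3% of all tested genes. The normalized CPM of Sdc1 was 145.8, 158.4 and 117.9 in pools 1, 2 and 3 labelled Rbm47-IKO, and 52.9, 67.7 and 62.4 in wt pools 1, 2 and 3. The lowest pool labelled Rbm47-IKO was well above the highest wt pool. The means were 141 ± 20.7 and 61.0 ± 7.53 CPM (SD, n = 3 pools each), from 3851 to 5999 counts and 1798 to 2571 counts. The log2 fold change was 1.21 (SE 0.15, 95% interval 0.86 to 1.55, edgeR adjusted p = 0.0119). The call was lost (log2 fold change 1.08, edgeR adjusted p = 0.0503) when the summed Y-linked transcripts of each pool were added as a covariate. It was also lost without pool 1 or 2 labelled Rbm47-IKO or without wt pool 3, where the log2 fold change was 1.18, 1.11 and 1.23 and the edgeR adjusted p was 0.0653, 0.0834 and 0.0621. The summed CPM of 4 Y-linked genes was 138.6, 53.0 and 143.7 in the pools labelled Rbm47-IKO and 215.4, 87.9 and 220.3 in wt pools. Xist, an RNA of female cells, had a CPM of 75.6, 258.1 and 40.3 in the pools labelled Rbm47-IKO. It had only 1.09 and 0.686 in wt pools 1 and 3, while wt pool 2 lay between pools 1 and 2 labelled Rbm47-IKO. The mix of sexes thus differed between pools and was partly confounded with the labels. The part of that mix in the Sdc1 result was not tested beyond the fit with the Y-linked covariate.

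**Figure D1:**
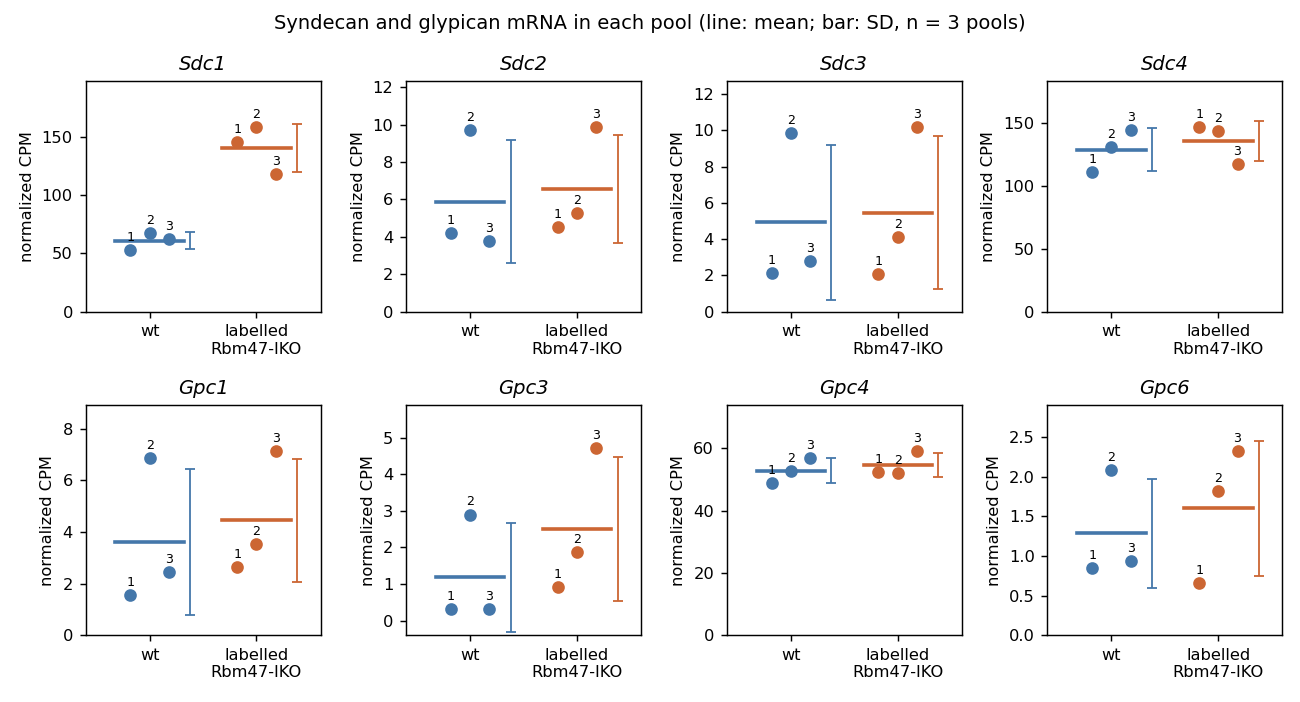
Normalized CPM of each of the 8 members in wt pools and in pools labelled Rbm47-IKO, with the pool number above each point, the mean as a line and the SD as a bar (n = 3 pools). The Sdc1 pools separate (52.9 to 67.7 against 117.9 to 158.4 CPM), whereas every other member overlaps between genotypes, and wt pool 2 and pool 3 labelled Rbm47-IKO are the highest points of Sdc2, Sdc3, Gpc1, Gpc3 and Gpc6.

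Because Sdc1 encodes CD138, markers of plasma cells and epithelium are given beside it. The 7 plasma cell genes summed to 281.6, 348.2 and 287.4 CPM in the pools labelled Rbm47-IKO and to 355.7, 322.7 and 333.2 CPM in wt pools. Most of each sum was Xbp1, a regulator of secretory cells in general, at 200.6, 214.9 and 174.9 against 188.3, 212.3 and 192.8 CPM. None of the 7 passed the test, and their median log2 fold change was -0.23. The part of plasma cells in the Sdc1 result was not tested. Jchain, which joins the chains of secreted IgA, had a CPM of 52.2, 97.2 and 86.9 against 134.0, 79.7 and 107.8 in wt pools. Tnfrsf17, the plasma cell receptor BCMA, had only 0.029, 0.422 and 0.276 against 0.235, 0.211 and 0.412 CPM. The 6 general epithelial genes summed to 6749 to 8468 CPM in the pools labelled Rbm47-IKO and to 6953 to 7688 CPM in wt, with none called. In bulk mucosa, more Sdc1 RNA per cell and more cells that express it cannot be told apart.

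Sdc4, which encodes the most broadly expressed syndecan and signals through protein kinase C alpha at focal adhesions, did not pass the test. Normalized Sdc4 CPM was 146.4, 143.2 and 117.1 in pools 1 to 3 labelled Rbm47-IKO, against 110.8, 130.7 and 144.4 in wt pools. The groups overlapped over most of their range. The log2 fold change of Sdc4 (chromosome 2, 164424247 to 164443887, minus strand) was 0.08 (SE 0.14, 95% interval -0.25 to 0.40, edgeR adjusted p = 0.867), an interval that does not reach the change of Sdc1.

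Sdc2, the syndecan of mesenchymal cells, had a CPM of 4.51, 5.28 and 9.86 in the pools labelled Rbm47-IKO and 4.21, 9.70 and 3.76 in wt pools. Sdc3, known mainly from neural tissue and muscle, had 2.08, 4.12 and 10.17 against 2.15, 9.83 and 2.80. In both genes the same pools, pool 3 labelled Rbm47-IKO and wt pool 2, were far above the rest of their own genotype. The log2 fold change was 0.15 for Sdc2 (chromosome 15, 32920723 to 33034730; 95% interval -0.87 to 1.17, edgeR adjusted p = 0.924). For Sdc3 (chromosome 4, 130792537 to 130826319) it was 0.14 (95% interval -1.51 to 1.80, edgeR adjusted p = 0.956). At this spread a change as large as that of Sdc1 was not detectable in Sdc3, whose interval holds it. The intervals of Gpc1, Gpc3 and Gpc6, given below, hold that change too, and the interval of Sdc2 ends just short of it. Exons of Sdc3 share 415 and 48 bases with the antisense genes Gm26716 and Gm12970, and since the use of strand in counting is not given in the sources used here, reads of either gene may be assigned to the other.

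**Figure D2:**
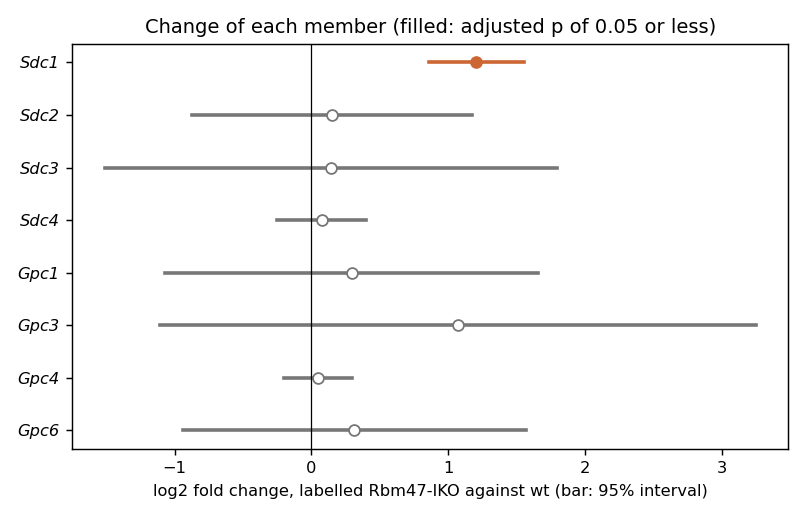
Log2 fold change of each member in the pools labelled Rbm47-IKO against wt, with the 95% interval from edgeR as a bar. Only Sdc1, filled, passed the threshold, and the intervals of Sdc4 (-0.25 to 0.40) and Gpc4 (-0.20 to 0.29) are narrow while that of Gpc3 (-1.11 to 3.25) is the widest.

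Levels were then set per length, as normalized RPKM (CPM per kilobase of gene), to compare members with each other. In wt pools the order was Sdc4 at 50.5 ± 6.65, Gpc4 at 19.9 ± 1.52 and Sdc1 at 16.0 ± 1.98 RPKM (SD, n = 3), and none of these ranges overlapped. In the pools labelled Rbm47-IKO, Sdc1 came second with 36.9 ± 5.43 RPKM, between Sdc4 at 53.2 ± 6.30 and Gpc4 at 20.6 ± 1.50. The other 5 members were far lower. Sdc2 had 1.77 RPKM in wt and 1.97 in pools labelled Rbm47-IKO, Gpc1 1.01 and 1.24, Sdc3 0.822 and 0.911, Gpc3 0.440 and 0.931, and Gpc6 0.137 and 0.170. Ranges of neighbours in this lower order overlapped in wt, and in the pools labelled Rbm47-IKO they overlapped except for Sdc3 and Gpc6.

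Sdc1 made up 23.5%, 24.1% and 21.9% of the summed syndecan RPKM in wt pools, and 39.3%, 41.6% and 37.9% in the pools labelled Rbm47-IKO. Sdc4 made up 73.7%, 69.7% and 75.9% against 59.0%, 56.2% and 56.3%. The Sdc1 shares did not overlap between genotypes, and since Sdc1 and Sdc4 made up nearly all of the sum, the Sdc4 share is close to their mirror image and no separate result. Sdc2 and Sdc3 together added only a few percent in any pool. The summed syndecan RPKM was 97.5, 100.1 and 81.6 in the pools labelled Rbm47-IKO and 59.0, 73.7 and 74.7 in wt pools. The ratio of Sdc1 to Sdc4 within a pool, which does not depend on the scaling of libraries, was 0.666, 0.740 and 0.673 in the pools labelled Rbm47-IKO and 0.319, 0.347 and 0.289 in wt pools. The log2 ratio was higher by 1.13 (exact two-sided permutation test, p = 0.1, the smallest that 3 against 3 pools allow, and adjusted p = 0.3 over 3 ratios). The log2 ratio of Sdc1 to Sdc2 was higher by 0.998 (exact permutation p = 0.3, adjusted p = 0.4) and that of Sdc1 to Sdc3 by 1.02 (exact permutation p = 0.4, adjusted p = 0.4). Pools of the 2 genotypes overlapped in these last 2 ratios, and with 3 pools against 3 none of the 3 ratios could reach the threshold.

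**Figure D3:**
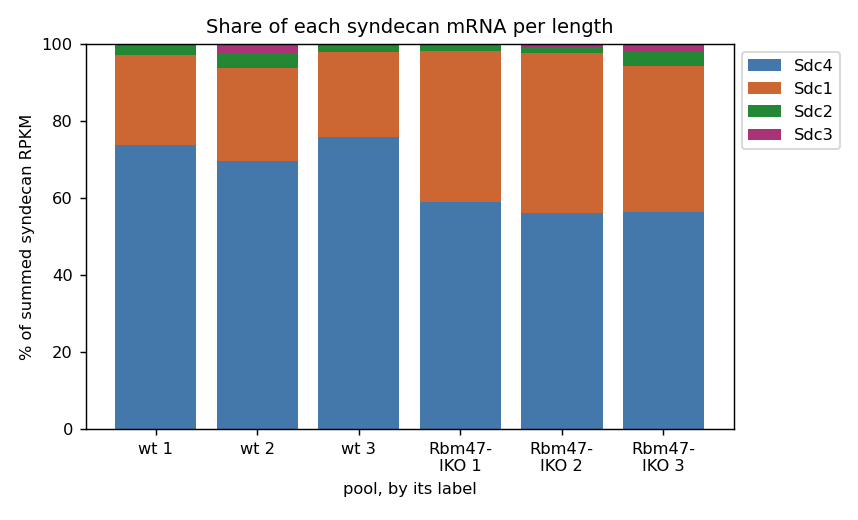
Percent of the summed syndecan RPKM taken by each syndecan in each pool, from wt pool 1 to pool 3 labelled Rbm47-IKO. The Sdc1 share runs from 21.9% to 24.1% in wt pools and from 37.9% to 41.6% in pools labelled Rbm47-IKO.

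Among the glypicans, Gpc4 was the main transcript and none of the 4 passed the test. Gpc4 (ENSMUSG00000031119, chromosome X, 52053021 to 52165252, minus strand), a glypican that carries Wnt ligands, had a CPM of 52.5, 52.1 and 59.2 in the pools labelled Rbm47-IKO and 48.9, 52.7 and 57.0 in wt pools. This was the steadiest member, with a highest pool only 1.14 and 1.16 times the lowest within each genotype. The log2 fold change was 0.05 (SE 0.11, 95% interval -0.20 to 0.29, edgeR adjusted p = 0.899). Gpc4 took 84.9% to 94.5% of the summed glypican RPKM in the pools labelled Rbm47-IKO and 86.1% to 96.6% in wt pools. Sums over the glypican members were 21.0, 21.5 and 26.3 RPKM against 19.1, 23.1 and 22.4 RPKM.

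Gpc1, a co-receptor for fibroblast growth factors, had a CPM of 2.66, 3.54 and 7.14 in the pools labelled Rbm47-IKO and 1.56, 6.85 and 2.44 in wt pools. Pool 3 labelled Rbm47-IKO and wt pool 2 were again the high ones. The log2 fold change (chromosome 1, 92831645 to 92860198) was 0.29 (95% interval -1.07 to 1.66, edgeR adjusted p = 0.88). Its exons share 977 bases with those of Ankmy1 on the other strand, so its counts are uncertain in the same way as those of Sdc3.

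Gpc3, which binds Hedgehog proteins and restrains growth, had the largest log2 fold change of the members after Sdc1 and the least certain one. Its CPM was 0.924, 1.87 and 4.72 in the pools labelled Rbm47-IKO and 0.324, 2.90 and 0.329 in wt pools. Wt pools 1 and 3 rested on 11 and 12 counts, with counting intervals (exact Poisson, 95%, counting error only) of 0.161 to 0.579 and 0.170 to 0.575 CPM, and wt pool 2 on 110 counts. The log2 fold change (chromosome X, 52272426 to 52613950) was 1.07 (SE 0.94, 95% interval -1.11 to 3.25, edgeR adjusted p = 0.656). It was 0.24 without pool 3 labelled Rbm47-IKO and 2.92 without wt pool 2 (edgeR adjusted p of 0.937 and 0.0917), and 0.63 without either wt pool 1 or wt pool 3 (edgeR adjusted p of 0.868 and 0.902). Gpc6, a glypican of mesenchyme, had a CPM of 0.664, 1.82 and 2.33 against 0.853, 2.08 and 0.933, and its log2 fold change was 0.31 (95% interval -0.94 to 1.57, edgeR adjusted p = 0.859). Of the glypicans outside the 8 members, Gpc2 had 11 to 25 counts in any pool (log2 fold change -0.09, edgeR adjusted p = 0.954). Gpc5 had 2 counts in wt pool 3 and 0 in every other pool, below the 3 counts taken as the limit of detection in a library.

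Of the 8 members, 5 were set apart from the rest by the pools in which they were high. Sdc2, Sdc3, Gpc1, Gpc3 and Gpc6 were each highest in pool 3 labelled Rbm47-IKO and in wt pool 2, a pattern shared by 16.4% of tested genes. These were also the pools highest in 6 smooth muscle genes, which summed to 360.9, 585.7 and 3302 CPM in the pools labelled Rbm47-IKO and to 90.7, 2803 and 313.1 CPM in wt pools. The 7 fibroblast genes moved likewise, with sums of 161.0, 255.6 and 379.8 against 97.8, 475.3 and 162.1 CPM. The 5 endothelial genes summed to 15.8, 25.9 and 29.6 against 19.4, 49.7 and 23.6 CPM, and the 6 genes of enteric neurons and glia to 3.81, 4.75 and 13.0 against 8.29, 13.8 and 9.30 CPM, both again highest in these pools. No marker of these lists was at 0 in any pool, none was called, and the part of muscle, stroma, vessels and nerves in the levels of these members was not tested. Within the pools labelled Rbm47-IKO the highest pool exceeded the lowest 2.19-fold for Sdc2, 4.89-fold for Sdc3, 2.69-fold for Gpc1, 5.10-fold for Gpc3 and 3.50-fold for Gpc6. Within wt pools the same range was 2.58-fold, 4.58-fold, 4.40-fold, 8.96-fold and 2.44-fold. With the smooth muscle sum as a covariate the log2 fold changes of Sdc2, Sdc3 and Gpc1 were -0.12, -0.31 and -0.00064, that of Gpc6 was 0.027, and that of Gpc3 was 0.82 (SE 0.35, unadjusted p = 0.044, edgeR adjusted p = 0.261), and none passed. Without both pools highest in smooth muscle, a setting chosen after seeing the data, Gpc3 had a log2 fold change of 2.09 (SE 0.51) and did not pass (edgeR adjusted p = 0.0795).

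Sdc1, Sdc4 and Gpc4 did not have that pattern. Sdc1 was lowest among its group in pool 3 labelled Rbm47-IKO, the pool with the most smooth muscle RNA, but highest among wt pools in wt pool 2, the other muscle-rich pool. Among the pools labelled Rbm47-IKO, Sdc1 was highest in pool 2. Pool 2 of each genotype also had the most Xist and the lowest Y-linked sum of its group, and the part of this in the Sdc1 levels was not tested. Gpc4 was highest in pool 3 labelled Rbm47-IKO and in wt pool 3, and Sdc4 in pool 1 labelled Rbm47-IKO and in wt pool 3. With the smooth muscle covariate the Sdc1 log2 fold change was 1.20 (edgeR adjusted p = 0.0041), and without both pools highest in smooth muscle it was 1.39 (edgeR adjusted p = 0.00965).

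**Figure D4:**
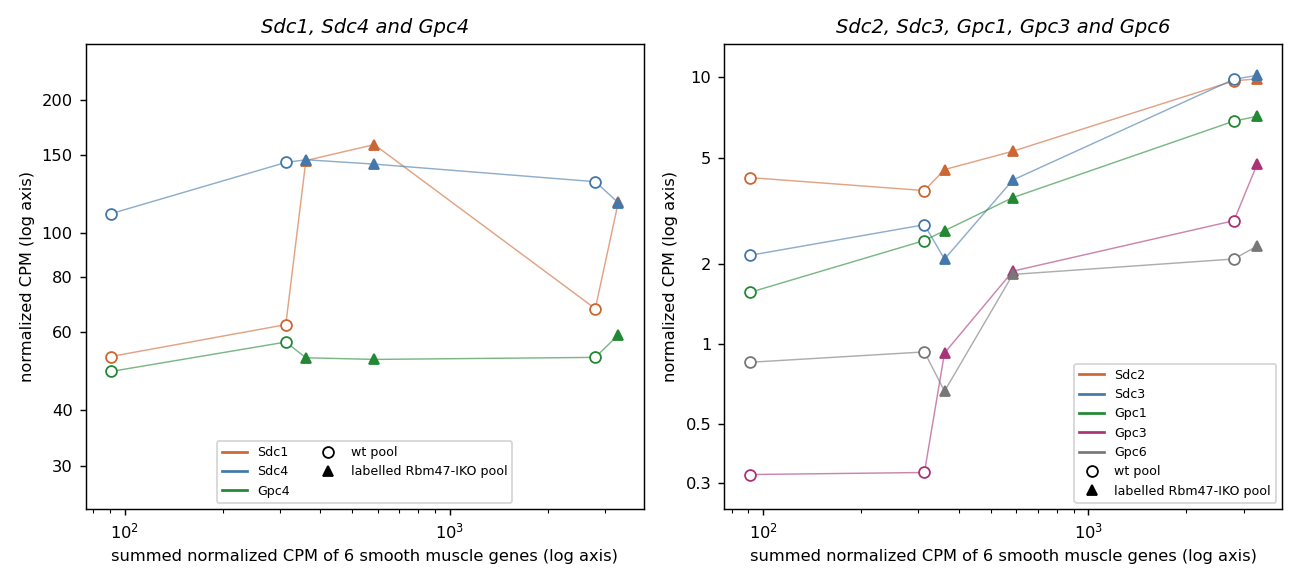
Normalized CPM of each member against the summed CPM of 6 smooth muscle genes in the 6 pools, both on log axes, with open circles for wt pools, filled triangles for pools labelled Rbm47-IKO and lines joining the pools of a gene in order of the sum. At right, all 5 members are highest in the pools at 2803 and 3302 CPM of muscle genes, whereas at left Sdc1 separates by genotype.

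The other genes of heparan sulfate proteoglycans were counted from 5 lists of 66 genes, of which 56 were tested. Hpse and Ext2 were higher and Cask was lower in the pools labelled Rbm47-IKO, and the other 53 tested genes did not pass. These were 3 of 56 genes, beside 443 of 16425 (2.7%) over all genes tested. The median log2 fold change over the 56 was 0.03, against -0.01 over all genes tested.

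Among the 12 tested genes of chain remodelling and core protein release, 1 was higher and 0 lower, with a median log2 fold change of 0.06. Hpse (ENSMUSG00000035273, chromosome 5, 100679484 to 100719716, minus strand) encodes heparanase, the endoglucuronidase that cuts heparan sulfate chains, including those of syndecan-1. Its CPM was 27.96, 30.44 and 24.96 in the pools labelled Rbm47-IKO and 10.35, 10.65 and 11.94 in wt pools. The groups were far apart, and Hpse was 2.53-fold higher (log2 fold change 1.34, SE 0.13, 95% interval 1.04 to 1.64, edgeR adjusted p = 0.00854). The Hpse call was lost without pool 2 labelled Rbm47-IKO (log2 fold change 1.27, edgeR adjusted p = 0.0676) or without wt pool 3 (log2 fold change 1.41, edgeR adjusted p = 0.0504). Adam17, a protease that sheds syndecan ectodomains, had a CPM of 37.98, 32.61 and 34.42 against 54.64, 44.40 and 56.03 and did not pass (log2 fold change -0.56, edgeR adjusted p = 0.0639). Mmp7, matrilysin, a Paneth cell protease known to release syndecan-1, had 13.9, 14.8 and 8.51 against 34.1, 22.4 and 7.30 CPM (log2 fold change -0.77, edgeR adjusted p = 0.505), with overlapping pools.

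Among the 14 genes of chain initiation and polymerisation, all tested, 1 was higher and 0 lower, with a median log2 fold change of 0.13. Ext2, a subunit of the polymerase that extends the chain, had a CPM of 35.07, 36.70 and 34.61 in the pools labelled Rbm47-IKO and 24.35, 26.03 and 24.09 in wt pools. Its pools were tight within each genotype and the log2 fold change was 0.51 (SE 0.10, edgeR adjusted p = 0.0387), but the call was lost without any 1 of the 6 pools (log2 fold change 0.49 to 0.55, edgeR adjusted p from 0.0519 to 0.241). It was also lost with the Y-linked covariate (log2 fold change 0.47, edgeR adjusted p = 0.127) and with an offset for GC content (0.45, edgeR adjusted p = 0.0673). The replicate block (0.51, edgeR adjusted p = 0.0856) and the fit with no low-count filter (0.52, edgeR adjusted p = 0.0555) ended the call too. So did leaving out both pools highest in smooth muscle (0.56, edgeR adjusted p = 0.0858). Its partner in the polymerase, Ext1, had 90.3, 80.2 and 61.5 against 91.6, 71.4 and 77.6 CPM (log2 fold change -0.05, edgeR adjusted p = 0.929), and is named here after its values were seen. For Extl3, which adds the first N-acetylglucosamine of the chain, the log2 fold change was 0.42, with an edgeR adjusted p of 0.265. Pxylp1, the phosphatase of the linker xylose, had 0.34 (edgeR adjusted p = 0.52).

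Of 20 genes of sulfation and epimerisation 12 were tested and none passed, with a median log2 fold change of 0.0027. The 8 untested genes, mostly 3-O- and 6-O-sulfotransferases, had at most 30 counts in any pool. Among the 12 tested genes the largest absolute log2 fold changes were those of Hs3st1 at 0.40, Papss2 at -0.37 and Hs2st1 at 0.36 (edgeR adjusted p of 0.379, 0.331 and 0.208). Of 9 other core protein genes 8 were tested and none passed, with a median of -0.01. Tgfbr3 (betaglycan) had a log2 fold change of 0.50, Nrp1 (neuropilin 1) -0.39 and Hspg2 (perlecan, of basement membranes) 0.30 (edgeR adjusted p of 0.775, 0.72 and 0.812). Among these, all 3 were highest in pool 3 labelled Rbm47-IKO and wt pool 2, as in the 5 members above, with 15.7 and 12.1 CPM for Tgfbr3 against 3.16 to 8.32 CPM in the remaining pools.

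Among 10 cytoplasmic partners of syndecans, all tested, 0 were higher and 1 was lower, with a median log2 fold change of -0.02. Cask, a scaffold whose PDZ domain binds the tail shared by all syndecans, had a CPM of 83.62, 74.83 and 77.64 in the pools labelled Rbm47-IKO and 117.7, 114.2 and 139.0 in wt pools. Every pool labelled Rbm47-IKO was below every wt pool, and 23.3% of all tested genes separated in either direction. The log2 fold change of Cask was -0.65 (SE 0.11, edgeR adjusted p = 0.0327). The Cask call held without wt pool 2 and was lost without any other pool (log2 fold change -0.70 to -0.55, edgeR adjusted p from 0.0536 to 0.211). With the Y-linked covariate the log2 fold change was -0.58 (edgeR adjusted p = 0.121) and with the GC offset -0.61 (edgeR adjusted p = 0.0598), and the call was lost in both. The Cask call was also lost with the replicate block (-0.65, edgeR adjusted p = 0.0835). Leaving out both pools highest in smooth muscle ended it as well (-0.71, edgeR adjusted p = 0.0641). Log2 fold changes of 0.50 (edgeR adjusted p = 0.451) and -0.39 (edgeR adjusted p = 0.137) were seen for Tiam1, which binds syndecan-1, and Prkca, the kinase activated by syndecan-4.

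**Figure D5:**
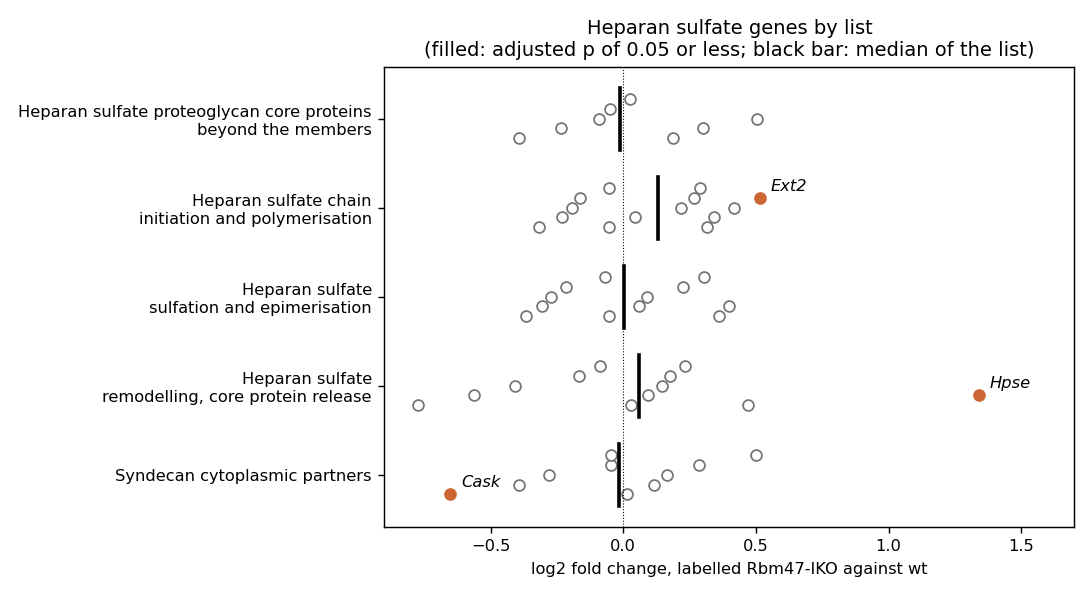
Log2 fold change of the 56 tested genes of 5 heparan sulfate lists, 1 circle per gene, spread vertically only for legibility, with the median of each list as a black bar. Filled circles passed the threshold, and they are Hpse at 1.34, Ext2 at 0.51 and Cask at -0.65.

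The genes whose profile over the 6 pools was most like that of Sdc1 were Aacs, Rhob and Avpi1, with root mean square differences of 0.0865, 0.0978 and 0.105 in centred log2 CPM. Aacs, acetoacetyl-CoA synthetase of lipid synthesis, had 79.4, 83.7 and 63.6 CPM in the pools labelled Rbm47-IKO and 28.9, 33.6 and 28.9 in wt pools. Rhob, a small GTPase of endosomes, had 370.2, 334.1 and 274.5 against 135.9, 170.4 and 149.0 CPM. Avpi1, a vasopressin-induced gene, had 6.82, 7.05 and 5.51 against 2.12, 3.37 and 2.55 CPM. They were chosen by that likeness, which fixes that their levels follow those of Sdc1, and no test is drawn from it. Their log2 fold changes were 1.31, 1.10 and 1.27 (edgeR adjusted p of 0.00875, 0.0145 and 0.0401).

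Because RBM47 binds RNA, the letters AUUUA and runs of 6 or more U, elements of mRNA turnover in 3′ untranslated regions, were counted in the longest annotated region of each member (GENCODE M21). Sdc1 had 1908 bases with 1 AUUUA and 2 runs of U, or 0.524 and 1.05 per kilobase. Over 13775 tested genes with at least 100 bases, the medians were 1.22 and 0.531 per kilobase. Sdc4 had 1839 bases with 1 AUUUA and 8 runs of U. Sdc2 had the most AUUUA of the members, 11 in 2395 bases, and Gpc4 had 1 AUUUA and 1 run of U in 500 bases. Hpse had 3 AUUUA and 1 run of U in 1387 bases, and Ext2 had none of either in 963 bases. These counts of letters are a description, and no binding was measured.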

How the data were processed

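Poly(A) RNA of 6 pools was sequenced on an Illumina HiSeq instrument. Per the labels' processing notes, the submitters named STAR 2.5.1a, Subread featureCounts 1.4.6-p5 and GRCm38, and the use of strand is not given in the sources used here. The authors deposited, for each pool, the raw count of reads on 38561 Ensembl genes. The authors' CPM column is that count scaled to the library total, and the deposited RPKM column is the CPM per kilobase. Both were recomputed from the counts with no difference beyond rounding. Genes without a symbol held 0.369% of the counts. No columns were left out, and no pools were identical.

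Counts were analysed in R 4.3.3 with edgeR 4.0.16 (filterByExpr, TMM, quasi-likelihood test, Benjamini-Hochberg over 16425 genes, genotype as the only term), with limma 3.58.1 and DESeq2 1.42.0 as alternatives. The SE is the log2 fold change over the square root of F, and CPM and RPKM in the text were recomputed with TMM library sizes. Floors (3 counts) and counting intervals cover counting error only, since reads are not independent molecules. Named genes were the members, Rbm47, Gpc2, Gpc5, in each list the genes called and the 3 with the largest absolute log2 fold change, and the 3 genes nearest to each called member by root mean square difference of centred log2 CPM (prior count 2). The members and lists were chosen with earlier results of these data known. Alternatives were DESeq2, RLE, upper quartile and library size scaling, no immunoglobulin genes, no filter or a CPM of at least 1 in 3 pools, limma-voom, robust dispersion, a replicate block, smooth muscle and Y-linked covariates, a GC offset (lowess span 0.3), and each pool left out. Leaving out both pools highest in smooth muscle was added after the data were seen. Promoters are from RefSeq, overlaps and 3′ untranslated regions from GENCODE M21.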

Additional observations from a re-analysis of the deposited data

How the results depend on the processing

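Sdc1 kept its direction in every fit. In the 13 alternatives that kept all 6 pools its log2 fold change was 1.08 to 1.22. The edgeR, limma or DESeq2 adjusted p was past the threshold in 12 of these 13. Without both muscle-rich pools the Sdc1 log2 fold change was 1.39 (edgeR adjusted p = 0.00965). With each pool left out it was 1.11 to 1.32 (edgeR adjusted p from 0.018 to 0.0834) and passed in 3 of 6. Members called stayed at 1 except for 0 with the Y-linked covariate, and were 0 to 1 with a pool left out. Genes called, 443 in the main analysis, were 1132 with DESeq2, 711 with the smooth muscle covariate, 270 with the GC offset, 100 with the replicate block, 59 with the Y-linked covariate and 0 to 431 with a pool left out. Without pool 2 labelled Rbm47-IKO 0 were called by edgeR although 1729 had an unadjusted p under 0.05, without wt pool 3 11 were called, without pool 1 labelled Rbm47-IKO 32 and without its pool 3 119. Pathway genes called, 3 in the main analysis, were 1 with the replicate block, the Y-linked covariate, the GC offset or both muscle-rich pools left out, 4 with DESeq2, upper quartile or library size scaling, 2 with no low-count filter, and 0 to 3 with a pool left out. Hpse passed in 13 of 13 alternatives, Cask in 10 (not with the block, the Y-linked covariate or the GC offset, at log2 fold changes of -0.65, -0.58 and -0.61), Ext2 in 9 (not with these, at 0.51, 0.47 and 0.45, or without a filter, at 0.52) and Adam17 in 3, all with the direction kept. The causes were not tested.

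Whether pool numbers pair the samples is not given in the sources used here. With 3 pools per genotype, which also differed in smooth muscle RNA, correlations of their deviations cannot decide it. Deviations of same-numbered pools correlated at 0.41, -0.0026 and -0.28 across genes, and the closest match was pool 3 labelled Rbm47-IKO with wt pool 2 at 0.48. With the replicate block the Sdc1 log2 fold change was 1.20 (edgeR adjusted p = 0.046).

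Members and other named genes with no call changed sign in some fits. With the smooth muscle covariate Sdc2 was -0.12, Sdc3 -0.31 and Gpc1 -0.00064, without both muscle-rich pools Gpc4 was -0.026, and with the Y-linked covariate Gpc2 was 0.055. With a pool left out the ranges were -0.27 to 0.72 for Sdc2, -0.67 to 1.14 for Sdc3, -0.022 to 0.17 for Sdc4, -0.22 to 1.15 for Gpc1, -0.013 to 0.11 for Gpc4, -0.050 to 0.84 for Gpc6, -0.57 to 0.18 for Gpc2, -0.084 to 1.30 for Tgfbr3 and -0.69 to 0.13 for Nrp1. Gpc3 kept its sign but ranged from 0.24 to 2.92 (edgeR adjusted p from 0.0917 to 0.937). In the same fits Hspg2 ranged from 0.027 to 0.96 and Mmp7 from -1.18 to -0.25. Hs3st1 ranged from 0.20 to 0.55, Tiam1 from 0.28 to 0.71 and Pxylp1 from 0.14 to 0.53. These genes also kept their sign, and none passed. Pools of Gpc3, Gpc6 and Gpc2 held as few as 11, 23 and 11 counts.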
